A study of Apera spica-venti with 32 samples.

Results

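Leaf transcripts of fatty acid and lipid metabolism were followed in silky windgrass (Apera spica-venti), a weedy grass of cereals, before and after a spray with the herbicide pinoxaden. The 68 lipid features described here were chosen by their description, out of 39590 features (open reading frames on assembled transcripts). The words searched were acetyl-CoA carboxylase, acyl carrier, ketoacyl, acyl-CoA, desaturase, lipase, phospholipid, GDSL, lipid-transfer, wax, diacylglycerol, sphingolipid and fatty acid terms, and lipoxygenases and carotene enzymes were left out. Only 7967 features carry a description, and all of them were listed by the authors as differentially expressed in at least 1 of 4 comparisons at an adjusted p under 0.05. The members were therefore selected on the spray response of a class, or on the difference between classes, in these same libraries. Counts and fold changes of these comparisons are given below as a description. Calls and counts at a p threshold are part of that description, and no test is read from them.

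The plants came from 4 populations. Of these, S1 and S2 are herbicide susceptible, while R1 and R2 carry resistance to multiple herbicides; the mechanism of resistance is not given in the sources used here. Plants of each population, grown in a greenhouse at 21 °C to an early leaf stage, were either left untreated or given a single spray of pinoxaden (45 g of active ingredient per ha), with leaf harvest 8 h afterwards. For every population there were 4 untreated and 4 sprayed biological replicates, each a pool of 3 plants, and so 32 libraries in all. No mock spray and no harvest time of the untreated plants is recorded, so that the herbicide, the formulation and the time of day cannot be told apart. Each class holds 2 populations, so that a difference between classes describes these populations.

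Plants build fatty acids in the plastid. Acetyl-CoA carboxylase makes malonyl-CoA from acetyl-CoA, and the fatty acid synthase then extends chains that are bound to acyl carrier protein. In grasses the plastid form of acetyl-CoA carboxylase is a large multidomain enzyme, and it is the target of pinoxaden; a cytosolic form supplies malonyl-CoA for the very-long-chain fatty acids of waxes and cutin. Finished chains are desaturated, built into galactolipids of the chloroplast membranes and into phospholipids, or elongated in the endoplasmic reticulum. Lipases and phospholipases release acyl chains from lipids, and peroxisomes oxidise them.

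The members lie on 65 contigs, and 3 contigs hold 6 of them as pairs of reading frames (phytoene desaturase, Sn1-specific diacylglycerol lipase alpha and GDSL esterase/lipase APG), so that the members are not all independent. For 34 members the assembled gene has other features as well, and how reads were divided among them is not given in the sources used here. Library totals ranged from 26213780 to 46062806 counts. Of the 68 members, 67 passed the filter on low counts among 25036 features tested, and 66 would have passed it in the untreated libraries alone. The untested member, a lipase isoform X1, had 9 counts over the 8 untreated libraries of each class, 45 over the sprayed susceptible and 10 over the sprayed resistant libraries. The level of a feature is its count relative to the TMM-scaled library (CPM); levels are not divided by transcript length, so that levels of different features are not compared. Of the members, 20 were assigned to synthesis, 28 to breakdown, 17 to other lipid roles, and 3 were carotenoid desaturases that the word search also caught. At the threshold of the choice, the largest values of the smallest adjusted p in the authors' deposited table were 0.0487 for 3-ketoacyl-CoA synthase 6-B, 0.0478 for fatty acid desaturase 4 and 0.0452 for phospholipase A1-II 7; features just outside carry no description.

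In sprayed leaves lipid transcripts were more often lower than higher with TMM scaling. This held for members sorted to synthesis and, mostly through GDSL esterases and lipases, for those sorted to breakdown. In susceptible plants 13 members rose and 36 fell, where rose and fell stand for an adjusted p under 0.05 in edgeR's quasi-likelihood test over all features. Of all features tested, 13.5% were called higher and 11.8% lower in that comparison; of the described features, which were chosen as the members were, 42.5% were called higher and 36.7% lower. In resistant plants 4 members rose and 15 fell, against 5.63% called higher and 3.51% lower of all features, and 18.0% higher and 11.1% lower of described features. Since the choice used these contrasts, nothing is read from the shares.

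Among the 20 synthesis members 3 rose and 12 fell in susceptible plants, with a median log2 fold change of -0.34, and 6 fell in resistant plants, with a median of -0.31. Among the 27 tested breakdown members 5 rose and 13 fell in susceptible plants (median -0.31), and 1 rose and 6 fell in resistant plants (median -0.20). GDSL esterases and lipases were 15 of these 27, with 2 of those that rose and 9 of those that fell in susceptible plants. Among the other breakdown roles in susceptible plants, 3 phospholipases fell, 2 other lipases (on 1 contig) rose and 1 fell, and 1 peroxisomal member rose. The median over described features was 0.21 in susceptible and 0.02 in resistant plants, and over all features it was -0.01 in both. The direction in susceptible plants rests on the scaling of libraries: with library totals alone the median of all features moved to 0.30, that of synthesis to -0.03 and that of breakdown to 0.01, and 15 members rose and 6 fell. Relative to the median of all features, synthesis lay lower by a log2 difference of -0.33 under either scaling, and breakdown by -0.30 with TMM and -0.29 with totals. In resistant plants the same difference was -0.30 for synthesis and -0.19 for breakdown under either scaling, and 3 members rose and 9 fell with totals alone. A change of scaling shifts all features of a library alike. The agreement of these differences between scalings was therefore fixed in advance and adds no support.

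**Figure D1:**
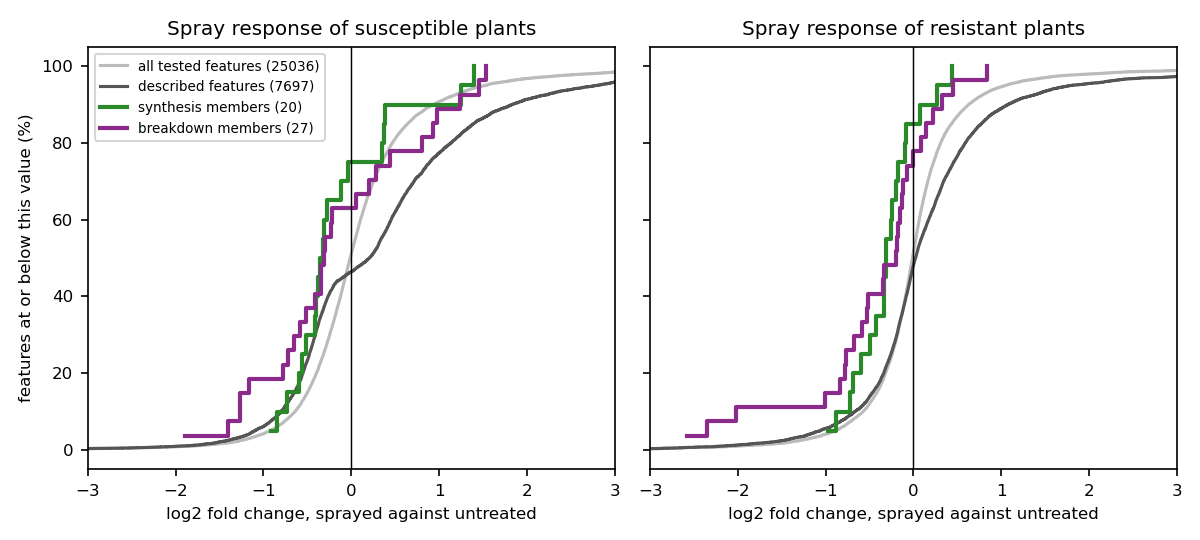
Cumulative share of features (%) against their log2 fold change on spraying in susceptible (left) and resistant plants (right), for all 25036 tested features, the 7697 tested described features, the 20 synthesis members and the 27 breakdown members. Around 0 the lines of both member groups run above those of the described features; their medians lie between -0.34 and -0.20, against 0.21 and 0.02 for described features.

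Markers of leaf mesophyll, the photosynthetic tissue, also had lower levels after spraying. All marker features were taken from the described features, which the authors listed as differentially expressed in these same libraries. A shift of their sums is therefore not independent of that choice, and the sums are given as a description. Over 15 features for chlorophyll-binding proteins and the small subunit of Rubisco, none of them at 0, the summed level in susceptible plants was 2700, 4430 and 5730 CPM (lowest, median and highest library) untreated and 2270, 2660 and 3020 CPM sprayed. In resistant plants it was 2880, 3530 and 4370 CPM untreated and 2160, 2530 and 3560 CPM sprayed. The 19 features of dividing cells (histones and cyclins), none at 0, summed to 82.6, 98.2 and 107 CPM in untreated and 91.4, 111 and 147 CPM in sprayed susceptible plants. The sprayed S1 libraries had 117 to 147 CPM and the sprayed S2 libraries 91.4 to 106 CPM. Resistant plants had sums of 86.0, 98.5 and 142 CPM untreated and 84.0, 101 and 112 CPM sprayed. No described feature matched the root list. The 1 seed feature had 11.4, 37.3 and 77.6 CPM untreated and 11.5, 22.5 and 43.2 CPM sprayed in susceptible plants, and 14.4, 44.2 and 69.1 CPM against 5.61, 20.6 and 33.0 CPM in resistant plants, so that its median was lower after spraying in both classes. Their part in the results was not tested, and in whole leaves fewer cells of a type and less RNA per cell cannot be told apart.

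The herbicide target, acetyl-CoA carboxylase, was represented by 2 members. Neither description tells with certainty which is the plastid form. For the feature described as acetyl-coenzyme A carboxylase (TRINITY_DN1720_c0_g2_i1.p1), the untreated S1 libraries had 215, 260, 275 and 232 CPM and the sprayed ones 204, 211, 173 and 237 CPM. In S2 the untreated libraries had 242, 355, 239 and 227 CPM and the sprayed ones 219, 208, 223 and 204 CPM. Untreated and sprayed libraries overlapped in S1 and did not in S2, where the untreated library at 355 CPM stood above the other 3.

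In R1 the untreated libraries of the same feature had 346, 273, 352 and 325 CPM and the sprayed ones 214, 231, 263 and 274 CPM. In R2 the untreated libraries had 255, 317, 298 and 251 CPM and the sprayed ones 203, 251, 236 and 238 CPM. The sprayed libraries of both resistant populations lay mostly below the untreated ones, with the ranges meeting at 1 library. The log2 fold change on spraying was -0.28 ± 0.09 (SE of the fit, 8 against 8 libraries) in susceptible plants, which turned to 0.04 with library totals alone, and -0.34 ± 0.09 in resistant plants. The call in susceptible plants was lost without S2 untreated replicate 2, at a log2 fold change of -0.20, and the call in resistant plants was kept without each library in turn but not with library totals alone (-0.32). By population the values were -0.25 (S1), -0.32 (S2), -0.40 for population R1 and -0.27 for R2.

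The member described as cytosolic acetyl-CoA carboxylase 2 (TRINITY_DN1720_c0_g1_i7.p1) had 190, 243 and 334 CPM (lowest, median, highest) in untreated and 153, 206 and 236 CPM in sprayed susceptible plants. The resistant libraries had 230, 255 and 286 CPM untreated and 173, 215 and 245 CPM sprayed. The ranges overlapped in both classes. It fell in susceptible plants, with a log2 fold change of -0.31 ± 0.09 that was 0.01 with library totals alone; in resistant plants the value was -0.26 ± 0.09 and did not pass the threshold. For both carboxylases the difference between the class responses was small against its error, -0.05 ± 0.13 and 0.05 ± 0.13.

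**Figure D2:**
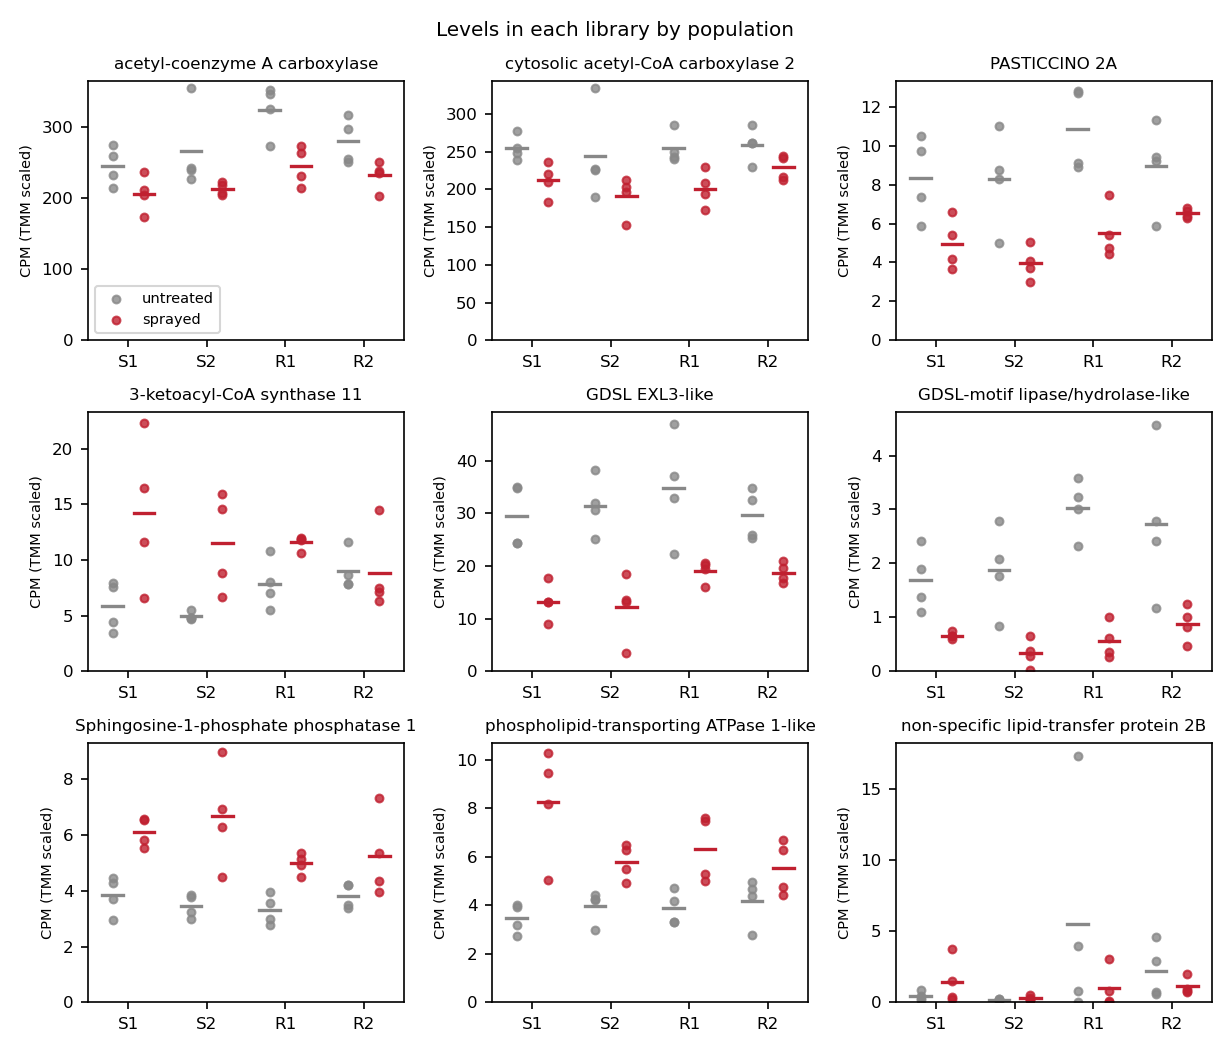
Level in each library (CPM, TMM scaled, axes from 0) of 9 lipid features by population, untreated in grey and sprayed in red, with a bar at the mean of 4 libraries. Both carboxylases are slightly lower after spraying, GDSL EXL3-like is lower in all populations with no overlap within a class (untreated from 22.3 CPM, sprayed up to 20.9 CPM), Sphingosine-1-phosphate phosphatase 1 is higher, and non-specific lipid-transfer protein 2B is at 17.3 CPM in 1 untreated R1 library.

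In the plastid steps that follow carboxylation, the changes in called members were also small. The group linked to acyl carrier protein held 4 members, of which 2 fell in susceptible plants. Acyl carrier protein 2, which carries the growing chain, had 4.61, 6.6 and 7.32 CPM in untreated and 4.14, 4.91 and 6.33 CPM in sprayed susceptible plants, overlapping ranges with a log2 fold change of -0.36 ± 0.12. That call was lost without S1 sprayed replicate 2, S2 untreated replicate 1, or S2 sprayed replicate 1 or 3. Oleoyl-acyl carrier protein thioesterase 1, which releases oleic acid from its carrier, had 10.8, 13.4 and 18.6 CPM untreated and 8.39, 10.5 and 12.8 CPM sprayed in susceptible plants (log2 fold change -0.38 ± 0.11). With library totals alone these values were -0.05 for either. In resistant plants neither passed the threshold, with log2 fold changes of -0.09 ± 0.12 and -0.31 ± 0.11. The remaining members of the group, acyl-[acyl-carrier-protein] desaturases 4 and 7, had -0.85 ± 0.53 and 0.39 ± 0.56 in susceptible plants, and also did not pass.

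Of 4 desaturases, which put double bonds into acyl chains or sterols, 3 fell and 1 rose in susceptible plants and 2 fell in resistant plants. Fatty acid desaturase DES3-like (TRINITY_DN5186_c0_g1_i12.p8) had 1.78, 3.25 and 3.79 CPM in untreated and 1.19, 1.89 and 2.58 CPM in sprayed susceptible plants. Resistant plants had 2.93, 4.44 and 5.89 CPM untreated and 1.33, 2.04 and 3.17 CPM sprayed. The ranges overlapped in both classes, with log2 fold changes of -0.73 ± 0.16 (-0.42 and not called with library totals alone) and -0.97 ± 0.16. Fatty acid desaturase 4, whose Arabidopsis counterpart acts on plastid phosphatidylglycerol, had -0.59 ± 0.18 and -0.60 ± 0.18; in resistant plants the call was lost without R1 untreated replicate 4, R1 sprayed replicate 2, R2 untreated replicate 4, or R2 sprayed replicate 1 or 2. The delta(7)-sterol-C5(6)-desaturase, an enzyme of sterol rather than fatty acid synthesis, fell in susceptible plants (-0.56 ± 0.16) and had 0.08 ± 0.16 in resistant plants. With library totals alone the sterol desaturase had -0.25 in susceptible plants and was not called. Fatty acid desaturase 4 then had -0.29 in susceptible and -0.57 in resistant plants, also not called. The delta(8)-fatty-acid desaturase 2-like, of a family that acts on sphingolipid long-chain bases, rose in susceptible plants with 14, 16.2 and 20 CPM untreated and 15.1, 21.0 and 27.8 CPM sprayed (0.35 ± 0.11). That call was lost without S1 sprayed replicate 1, and in resistant plants the value was -0.08 ± 0.11.

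Elongation was divided. Of 6 members for very-long-chain fatty acids, 2 rose and 2 fell in susceptible plants and 1 fell in resistant plants. PASTICCINO 2A (TRINITY_DN1914_c0_g1_i7.p1), the dehydratase of the elongase complex, had 5.01, 8.52 and 11 CPM in untreated and 3.01, 4.12 and 6.58 CPM in sprayed susceptible plants. Its levels in resistant plants were 5.89, 9.3 and 12.8 CPM untreated and 4.41, 6.35 and 7.48 CPM sprayed. It was lower in sprayed leaves of both classes, with overlapping ranges and log2 fold changes of -0.91 ± 0.17 and -0.72 ± 0.16, and both calls were kept without each library and with library totals alone. 3-ketoacyl-CoA synthases carry out the condensing step of elongation, and the members of this family went both ways.

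3-ketoacyl-CoA synthase 11 (TRINITY_DN867_c1_g1_i1.p1) had 3.45, 4.81 and 7.94 CPM in untreated and 6.6, 13.1 and 22.3 CPM in sprayed susceptible plants, a log2 fold change of 1.25 ± 0.23. In resistant plants it had 5.47, 7.97 and 11.6 CPM untreated and 6.34, 11.2 and 14.5 CPM sprayed (0.27 ± 0.22). The ranges overlapped in both classes, and untreated resistant libraries lay within the upper part of the susceptible range or above it. 3-ketoacyl-CoA synthase 12-like (TRINITY_DN143_c0_g3_i1.p1) had 0.101, 0.444 and 1.09 CPM untreated and 0.778, 1.13 and 2.31 CPM sprayed in susceptible plants (1.40 ± 0.41), and its log2 fold change in resistant plants was 0.44 ± 0.37. 3-ketoacyl-CoA synthase 1 fell in susceptible plants, by a log2 value of -0.40 ± 0.13, which was -0.09 and not called with library totals alone. The difference between the class responses was -0.98 ± 0.32 for 3-ketoacyl-CoA synthase 11 and did not pass the threshold.

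Enzymes of galactolipids, the main lipids of thylakoid membranes, and of triacylglycerol made up 4 members. In susceptible plants 3 of them fell, and in resistant plants 2 fell. Digalactosyldiacylglycerol synthase 1 had 6.13, 8.2 and 12.1 CPM untreated and 4.4, 6.39 and 7.69 CPM sprayed in susceptible plants, and 5.8, 8.65 and 8.95 CPM against 4.86, 5.93 and 6.87 CPM in resistant plants. The ranges overlapped in both, with log2 fold changes of -0.52 ± 0.13 and -0.43 ± 0.13; the second call was lost in 8 of 16 fits without 1 library. Monogalactosyldiacylglycerol synthase 3 had 2.93, 3.28 and 4.38 CPM untreated and 2.24, 3.37 and 4.27 CPM sprayed in susceptible plants (-0.04 ± 0.11). The resistant libraries had 3.47, 4.25 and 5.26 CPM untreated and 2.1, 3.09 and 3.96 CPM sprayed, and it fell there (-0.50 ± 0.11). Digalactosyldiacylglycerol synthase 2 and diacylglycerol O-acyltransferase 1, the last enzyme of triacylglycerol synthesis, fell in susceptible plants (-0.32 ± 0.11 and -0.41 ± 0.09). The call of synthase 2 was lost without S1 sprayed replicate 2, S2 untreated replicate 1, or S2 sprayed replicate 2 or 4. With library totals alone, the values of the 3 features that fell in susceptible plants lay between -0.21 and -0.01 and none was called.

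**Figure D3:**
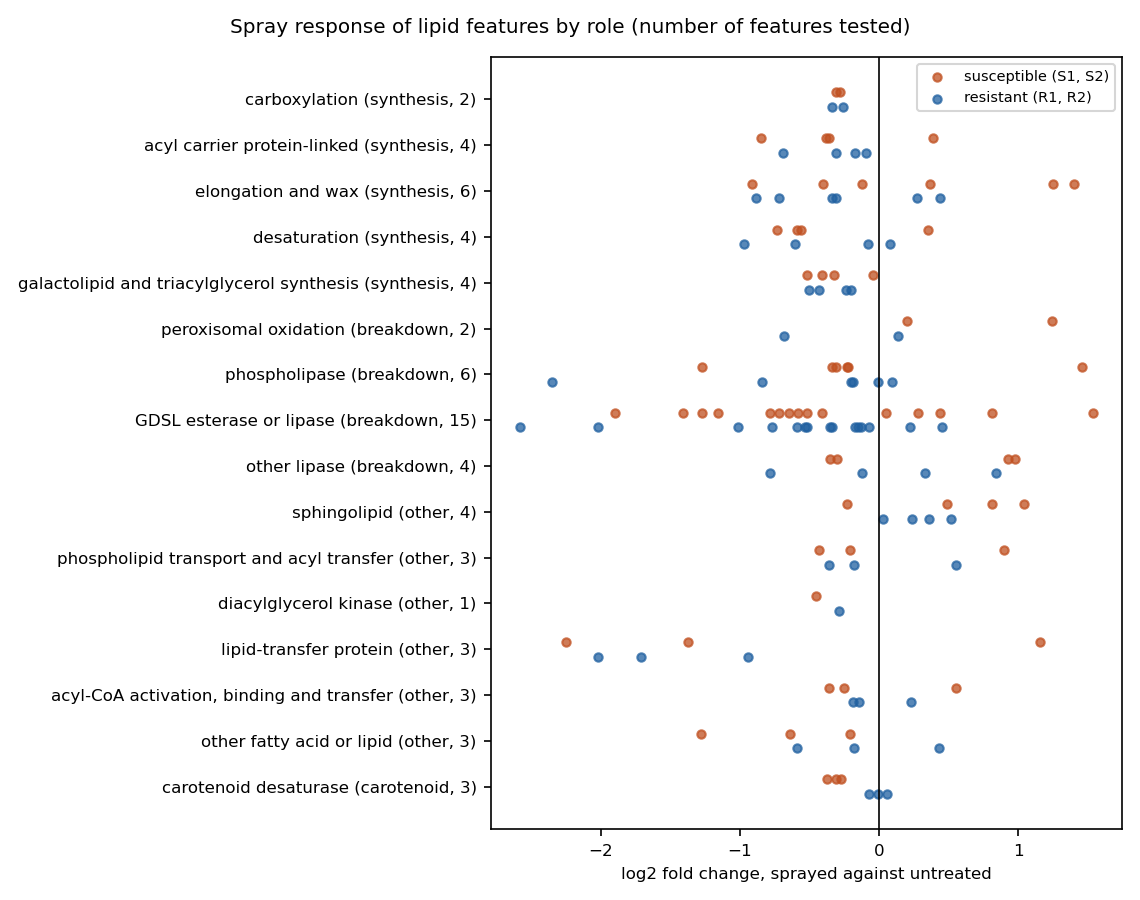
Log2 fold change on spraying of the 67 tested lipid features by role (side and number tested in parentheses), with susceptible plants in orange and resistant plants in blue. Most points lie left of 0; the sphingolipid features lie right of 0 except 1 at -0.23 in susceptible plants, and the GDSL features spread from -2.58 to 1.54.

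On the breakdown side the GDSL esterases and lipases formed the largest group. These hydrolases have many relatives in plants, and several act on cutin, surface lipids or other esters rather than on storage lipids. Of 15 members 2 rose and 9 fell in susceptible plants and 4 fell in resistant plants; with library totals alone 3 of the 9 were still called lower. GDSL esterase/lipase EXL3-like (TRINITY_DN10072_c0_g1_i1.p1) had 24.3, 31.3 and 38.2 CPM in untreated and 3.49, 13.1 and 18.5 CPM in sprayed susceptible plants. Resistant plants had 22.3, 32.7 and 47.0 CPM untreated and 16.1, 19.6 and 20.9 CPM sprayed. No sprayed library reached an untreated one in either class, and the log2 fold changes were -1.27 ± 0.21 and -0.77 ± 0.20.

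The GDSL-motif lipase/hydrolase-like feature (TRINITY_DN26058_c0_g1_i2.p1) had the lowest mean response of its group among features of at least 1 CPM. It had 0.841, 1.83 and 2.79 CPM in untreated and 0.0338, 0.625 and 0.745 CPM in sprayed susceptible plants. Its levels in resistant plants were 1.17, 2.89 and 4.57 CPM untreated and 0.258, 0.714 and 1.25 CPM sprayed. The groups did not overlap in susceptible plants and met at the edges in resistant plants, with log2 fold changes of -1.90 ± 0.34 and -2.02 ± 0.33. A GDSL esterase/lipase without further name (TRINITY_DN8197_c1_g1_i8.p1) fell in both classes, with -0.72 ± 0.14 and -0.53 ± 0.14; the second call was lost without R2 untreated replicate 1. Another (TRINITY_DN1941_c0_g1_i1.p2) rose in susceptible plants, from 0.437, 1.19 and 1.44 CPM untreated to 0.68, 1.94 and 2.93 CPM sprayed (0.81 ± 0.26), a call that was lost without S1 sprayed replicate 4 or S2 untreated replicate 3.

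Groups of 8 sprayed and 8 untreated libraries that do not overlap at all were uncommon. Among the 67 members 4 had this in susceptible plants, against 5.25% of all features, and 1 in resistant plants, against 1.53%. The share over described features, which were chosen as the members were, was not computed, so nothing is read from these shares. The 4 were EXL3-like and the GDSL-motif feature, lower after spraying, and Sphingosine-1-phosphate phosphatase 1 and the phospholipid-transporting ATPase, higher after spraying; EXL3-like was the 1 in resistant plants.

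Phospholipases cleave membrane phospholipids, and phospholipase D releases phosphatidic acid, a lipid signal. Of the 6 members sorted here 3 fell in susceptible plants and 1 in resistant plants. The 3 were Phospholipase D alpha 1 (-1.27 ± 0.38), phospholipase D zeta 1 (-0.34 ± 0.13) and phospholipase D alpha 2-like (-0.31 ± 0.11). Of these calls, none was kept with library totals alone, and those of zeta 1 and alpha 2-like were also lost in 7 and 9 of 16 fits without 1 library. Phospholipase D alpha 1 was at low levels, with 0.265 to 0.748 CPM in untreated and 0.068 to 0.305 CPM in sprayed susceptible plants. A further phospholipase D had 102, 122 and 140 CPM in untreated and 83.3, 106 and 114 CPM in sprayed susceptible plants, and did not pass the threshold (-0.23 ± 0.09).

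The member that fell in resistant plants was the probable lysophospholipase BODYGUARD 1 (TRINITY_DN7043_c0_g2_i2.p1), a hydrolase that in Arabidopsis is needed for a normal cuticle. It had 4.64, 6.8 and 8.08 CPM in untreated and 1.96, 3.77 and 5.59 CPM in sprayed resistant plants (-0.84 ± 0.19). In susceptible plants it had 2.56, 3.89 and 5.17 CPM untreated and 1.08, 3.52 and 4.89 CPM sprayed (-0.22 ± 0.19). Untreated resistant libraries were mostly above the susceptible ones, and sprayed libraries of both classes overlapped.

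Of 4 other lipases tested, 2 rose and 1 fell in susceptible plants, and 1 rose and 1 fell in resistant plants. Both reading frames of 1 contig described as Sn1-specific diacylglycerol lipase alpha rose in susceptible plants (0.93 ± 0.20 and 0.98 ± 0.20), and 1 of them rose in resistant plants (0.84 ± 0.20 and 0.33 ± 0.20). The second frame (TRINITY_DN19344_c0_g1_i1.p2) had 0.366, 0.681 and 1.31 CPM untreated and 1.07, 1.36 and 1.77 CPM sprayed in susceptible plants, with overlapping ranges. Triacylglycerol lipase 1 fell in susceptible plants (-0.35 ± 0.10; -0.04 and not called with library totals alone). A fatty acid amide hydrolase-like feature, of enzymes that release fatty acids from N-acylethanolamines, had 8.94, 15.7 and 16.9 CPM in untreated and 3.7, 8.65 and 12.9 CPM in sprayed resistant plants (-0.78 ± 0.23). That call was lost in 8 of 16 fits without 1 library.

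Peroxisomal beta-oxidation was represented by 2 members, and by an enoyl-CoA hydratase outside the word search that is given further below. A 3-ketoacyl-CoA thiolase-like protein, which cleaves the last step of each oxidation round, had 26.4, 32.9 and 36.7 CPM in untreated and 30.7, 38.2 and 44.4 CPM in sprayed susceptible plants. It rose by a log2 value of 0.20 ± 0.07, a call that was lost in 11 of 16 fits without 1 library; in resistant plants the value was 0.14 ± 0.07. The multifunctional protein MFP-a-like, which hydrates and oxidises the chain, had 0.37, 0.84 and 1.1 CPM in untreated and 0.899, 1.85 and 3.59 CPM in sprayed susceptible plants (1.24 ± 0.58). In resistant plants it was scattered, with 0.782, 3.5 and 6.85 CPM untreated and 0.182, 0.897 and 5.53 CPM sprayed (-0.68 ± 0.55), and it passed the threshold in neither class.

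Among the members outside synthesis and breakdown, sphingolipid features were mostly higher after spraying. Sphingolipids build membranes, and their phosphorylated long-chain bases act as signals in plants. Of 4 members 3 rose and 1 fell in susceptible plants and 2 rose in resistant plants. Sphingosine-1-phosphate phosphatase 1 (TRINITY_DN41016_c0_g1_i1.p1), which removes the phosphate, had 2.94, 3.74 and 4.46 CPM untreated and 4.5, 6.42 and 8.97 CPM sprayed in susceptible plants. In resistant plants it had 2.76, 3.52 and 4.22 CPM untreated and 3.96, 5.04 and 7.32 CPM sprayed. The groups did not overlap in susceptible plants and overlapped slightly in resistant plants, with log2 fold changes of 0.81 ± 0.13 and 0.52 ± 0.13.

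Kinases that add this phosphate were also among the members. Sphingosine kinase 2-like had 0.48, 0.722 and 1.15 CPM in untreated and 1.02, 1.46 and 2.42 CPM in sprayed susceptible plants (1.04 ± 0.23), and 0.24 ± 0.23 in resistant plants. Sphingoid long-chain bases kinase 2 rose in both classes (0.49 ± 0.11 and 0.36 ± 0.11), the second call being lost in 7 of 16 fits without 1 library. Sphingoid long-chain bases kinase 1-like was lower in sprayed susceptible plants, from 17.8, 20.1 and 24.8 CPM to 14.5, 17.3 and 20.2 CPM (-0.23 ± 0.09); this call was lost in 10 of 16 fits without 1 library, and the value turned to 0.08 with library totals alone.

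Proteins that move lipids went both ways. The phospholipid-transporting ATPase 1-like (TRINITY_DN6066_c0_g1_i9.p1), a flippase of membrane phospholipids, had 2.75, 3.99 and 4.41 CPM in untreated and 4.92, 6.39 and 10.3 CPM in sprayed susceptible plants. The resistant libraries had 2.76, 4.3 and 4.96 CPM untreated and 4.42, 5.79 and 7.6 CPM sprayed. The groups were apart in susceptible plants and overlapped in resistant plants, with log2 fold changes of 0.90 ± 0.15 and 0.55 ± 0.15; the second call was lost without R2 sprayed replicate 1. Lipid-transfer proteins, small secreted proteins that bind lipids, had 2 of 3 members falling in susceptible plants and 1 in resistant plants.

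A putative lipid-transfer protein (TRINITY_DN18221_c0_g1_i1.p1) had 0.503, 0.977 and 1.41 CPM in untreated and 0, 0.263 and 1.23 CPM in sprayed susceptible plants (-1.37 ± 0.47). Resistant plants had 1.08, 2.85 and 7.12 CPM untreated and 0.245, 0.712 and 1.58 CPM sprayed (-2.02 ± 0.44). Its call in susceptible plants was lost without S1 untreated replicate 2 or 3, S1 sprayed replicate 1 or 3, or S2 sprayed replicate 4, and with library totals alone. The lipid-transfer protein-like At2g13820 was at lower levels, with 0.159, 0.435 and 0.738 CPM untreated and 0, 0.079 and 0.207 CPM sprayed in susceptible plants (-2.25 ± 0.46), and had -0.94 ± 0.43 in resistant plants.

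In lipid remodelling, phospholipid:diacylglycerol acyltransferase 1, which moves an acyl chain from a phospholipid to diacylglycerol, had 11.7, 13.3 and 14.2 CPM in untreated and 8.47, 9.41 and 12.0 CPM in sprayed susceptible plants (-0.43 ± 0.08), and -0.18 ± 0.08 in resistant plants. Diacylglycerol kinase 1, which makes phosphatidic acid, had 6.6, 7.05 and 8.18 CPM untreated and 3.85, 5.19 and 6.6 CPM sprayed in susceptible plants. It fell in both classes (-0.45 ± 0.09 and -0.29 ± 0.09), the second call being lost in 11 of 16 fits without 1 library. 2-hydroxyacyl-CoA lyase, a peroxisomal enzyme that shortens 2-hydroxy acids, rose in susceptible plants, from 6.8, 8.54 and 10.8 CPM to 9.77, 12.2 and 16 CPM (0.55 ± 0.11). Acyl-CoA-binding domain-containing protein 4 fell there (-0.36 ± 0.09). With library totals alone the values of the acyltransferase, the kinase and the binding protein were -0.12, -0.14 and -0.04, none called.

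The remaining members were described by fatty acid or phospholipid words. CDP-diacylglycerol--serine O-phosphatidyltransferase 1, which makes phosphatidylserine, fell in susceptible plants (-1.28 ± 0.29) and had -0.18 ± 0.28 in resistant plants. Chloroplast FATTY ACID EXPORT 4, of a family whose Arabidopsis members carry fatty acids out of the plastid, passed the threshold in neither class (-0.64 ± 0.25 and -0.59 ± 0.24). The 3 carotenoid desaturases, which are enzymes of pigment synthesis, fell in susceptible plants (-0.27 to -0.37), the call of 15-cis-phytoene desaturase-like being lost in 9 of 16 fits without 1 library. They lay between -0.07 and 0.06 in resistant plants, where 0 of 3 passed by edgeR and 0 had an unadjusted p under 0.05. With library totals alone the values in susceptible plants were between -0.05 and 0.05, and none was called.

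The calls were then repeated without each library in turn and with library totals alone. Of the 13 that rose in susceptible plants 9 were called without each library in turn, and these 9 were also called with library totals alone. Of the 36 that fell 27 were called without each library, and 6 of these also with library totals alone. The 6 were PASTICCINO 2A, EXL3-like, the GDSL-motif feature, the GDSL feature on contig DN8197, lipid-transfer protein-like At2g13820 and CDP-diacylglycerol--serine O-phosphatidyltransferase 1. In resistant plants 2 of the 4 that rose and 9 of the 15 that fell were called without each library. Of these, 2 and 7 were also called with library totals alone. The members were chosen by the authors' calls in these same libraries, so that kept calls describe them and are no independent support. The share of calls kept over all or described features is not given.

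Lipid enzymes that the word search did not catch were looked up as a separate list of 20 described features. In susceptible plants 6 of them rose and 9 fell, against 13.5% higher and 11.8% lower of all features and 42.5% and 36.7% of described features. In resistant plants 3 rose and 5 fell, against 5.63% and 3.51% of all and 18.0% and 11.1% of described features. These features were chosen as the members were, so nothing is read from the shares. Calls with library totals alone or without 1 library are not given for this list. The list includes 2 malonyltransferases and an allene oxide cyclase, which do not assemble lipids. Phosphatidylinositol:ceramide inositolphosphotransferase (TRINITY_DN743_c0_g1_i5.p1), which puts the head group on plant sphingolipids, rose in both classes with log2 fold changes of 2.38 ± 0.18 and 1.71 ± 0.17; a second feature of that description fell in resistant plants (-0.48 ± 0.12) and had -0.30 ± 0.12 in susceptible plants. Ceramide kinase, which phosphorylates ceramide, fell in susceptible plants (-0.39 ± 0.14) and had 0.13 ± 0.14 in resistant plants. Glycerol-3-phosphate 2-O-acyltransferase 6, of a family that makes cutin precursors, fell in both (-0.80 ± 0.23 and -0.97 ± 0.23). A very-long-chain enoyl-CoA reductase (TRINITY_DN7123_c0_g2_i3.p1) also fell in both (-0.34 ± 0.11 in each). Another feature of that description had -0.53 ± 0.31 in susceptible and -0.90 ± 0.30 in resistant plants, neither called. Enoyl-CoA reductase-B fell in susceptible plants (-0.36 ± 0.09) and had -0.19 ± 0.09 in resistant plants. The plastid 3-oxoacyl-[acyl-carrier-protein] synthase I, a condensing enzyme of the fatty acid synthase, fell in resistant plants (-0.70 ± 0.22) and had -0.51 ± 0.22 in susceptible plants. Peroxisomal enoyl-CoA hydratase 2, an enzyme of beta-oxidation, rose in susceptible plants (0.38 ± 0.10). In resistant plants it had 0.23 ± 0.10 and was not called. Of the 3 lipoxygenases, 1 rose and 1 fell in susceptible plants.

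Signs in the 4 populations were counted next. Of the 20 synthesis members 13 (65.0%) were lower and 1 (5.0%) was higher after spraying in all 4 populations. Of the 27 breakdown members 13 (48.1%) were lower and 5 (18.5%) were higher in all 4. Over described features 29.4% were lower and 36.5% higher in all 4, and over all features tested 18.1% and 18.3%. The choice of members used the class means that these populations make up, so that the shares describe the members.

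For each library the median over members of the log2 level was set against the untreated mean of its population, with TMM scaling; with library totals alone this was not computed. For synthesis the untreated libraries lay between -0.16 and 0.09 and the sprayed ones between -0.38 and -0.18. No sprayed library of any population reached an untreated one. Since the members were chosen on class comparisons of these same libraries, this separation describes them and is no independent support. The same medians over described or all features were not computed. For breakdown the untreated libraries lay between -0.21 and 0.12 and the sprayed ones between -0.46 and 0.02, and these overlapped. By population the sprayed means for breakdown for S1 and S2 were -0.20 ± 0.20 and -0.20 ± 0.07, and for R1 and R2 -0.30 ± 0.11 and -0.10 ± 0.09 (SD, n = 4); in the same order they were, for synthesis, -0.30 ± 0.07, -0.25 ± 0.06, -0.31 ± 0.06 and -0.24 ± 0.04.

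**Figure D4:**
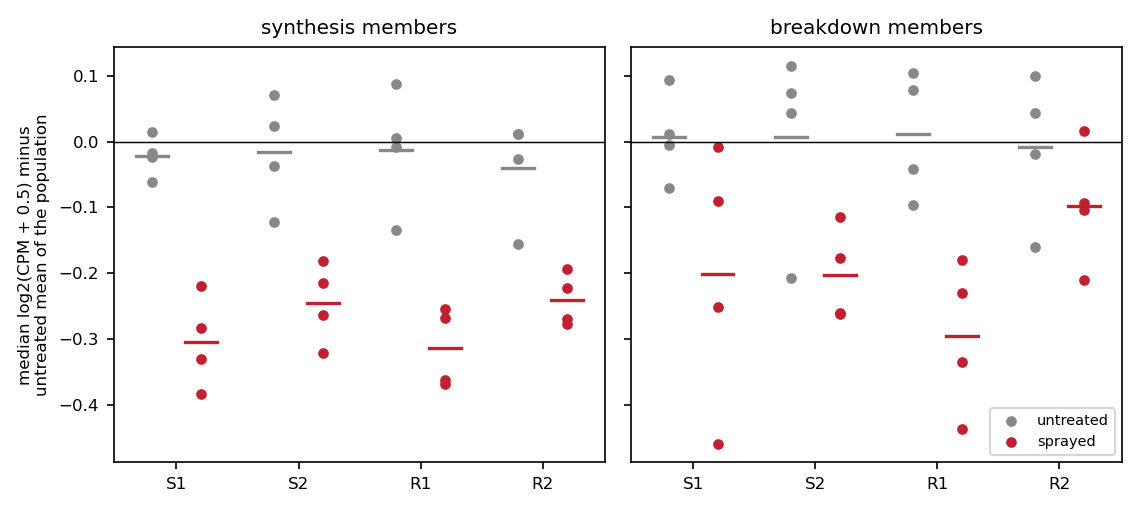
Median over synthesis (left) and breakdown members (right) of log2(CPM + 0.5) in each library, minus the untreated mean of the same population; grey points are untreated and red points sprayed libraries, with bars at the mean of 4. The sprayed libraries lie between -0.38 and -0.18 for synthesis and between -0.46 and 0.02 for breakdown.

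Before spraying, 10 members were higher and 2 were lower in resistant than in susceptible plants. Of all features 2.76% were called higher and 1.36% lower in this contrast, and of described features 8.73% and 4.12%. The contrast shares its untreated libraries with both spray responses, and it helped to choose the members. The 10 included 3-ketoacyl-CoA synthases 12-like and 20-like, BODYGUARD 1, lipid-transfer protein 2B, a putative lipid-transfer protein and the GDSL esterases At3g53100-like and At5g03810. The remaining ones were sphingosine kinase 2-like (0.82 ± 0.23), lysophospholipid acyltransferase 2 (0.36 ± 0.09) and MFP-a-like (1.99 ± 0.58). The 2 that were lower were an unnamed GDSL esterase/lipase (-1.60 ± 0.46) and sphingoid long-chain bases kinase 1-like (-0.31 ± 0.09). With library totals alone 21 members were called higher and 1 lower, while the median of all features moved to 0.21; DESeq2 called 14 higher and 6 lower.

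Most of these calls did not hold without each untreated library in turn. That of MFP-a-like was lost in 14 of 16 such fits, while its log2 difference stayed between 1.6 and 2.15. 3-ketoacyl-CoA synthase 12-like had 1.0, 2.1 and 4.3 CPM in untreated resistant plants, against 0.101, 0.444 and 1.09 CPM in susceptible plants, a log2 difference of 2.19 ± 0.41. It was the 1 member of the 12 that was called without each untreated library in turn. BODYGUARD 1 (0.80 ± 0.19) was lost without S1 untreated replicate 1 or S2 untreated replicate 3, and At3g53100-like (1.00 ± 0.25) without S1 untreated replicate 1 or 4 or S2 untreated replicate 3. Lipid-transfer protein 2B had 17.3, 0.0385, 3.94 and 0.783 CPM in untreated R1 and 0.625, 2.88, 4.59 and 0.71 CPM in untreated R2. In untreated S1 it had 0.291, 0.448, 0.906 and 0.15 CPM, and in S2 0.273, 0.146, 0.236 and 0.13 CPM. Resistant libraries thus spanned the susceptible range and went beyond it, with R1 replicate 1 far above the rest.

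The same R1 library was highest for other members. At5g03810 had 4.6 CPM in it against 0 to 0.742 CPM in the other untreated resistant libraries, the putative lipid-transfer protein 7.12 against 1.08 to 3.99 CPM, and 3-ketoacyl-CoA synthase 20-like 4.14 against 0.543 to 1.69 CPM. Its 19 features of dividing cells summed to 142 CPM, against 93.9 to 99.5 CPM in the other 3 untreated R1 libraries; the part of this in the result was not tested. Without it 3 of the 12 were called: At3g53100-like (1.05), 3-ketoacyl-CoA synthase 12-like (2.22) and BODYGUARD 1 (0.82), and lipid-transfer protein 2B moved from 3.56 ± 0.86 to 2.66 ± 0.79. The number called was 1, 6, 8 and 8 without S1 untreated replicates 1, 2, 3 and 4, it was 6, 1 and 6 without S2 untreated replicates 1, 3 and 4, and 8, 5 and 3 without R2 untreated replicates 1, 2 and 3. Without any of the remaining untreated libraries it was 10 (S2 replicate 2), 12, 11 and 11 (R1 replicates 2, 3 and 4) and 14 (R2 replicate 4).

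**Figure D5:**
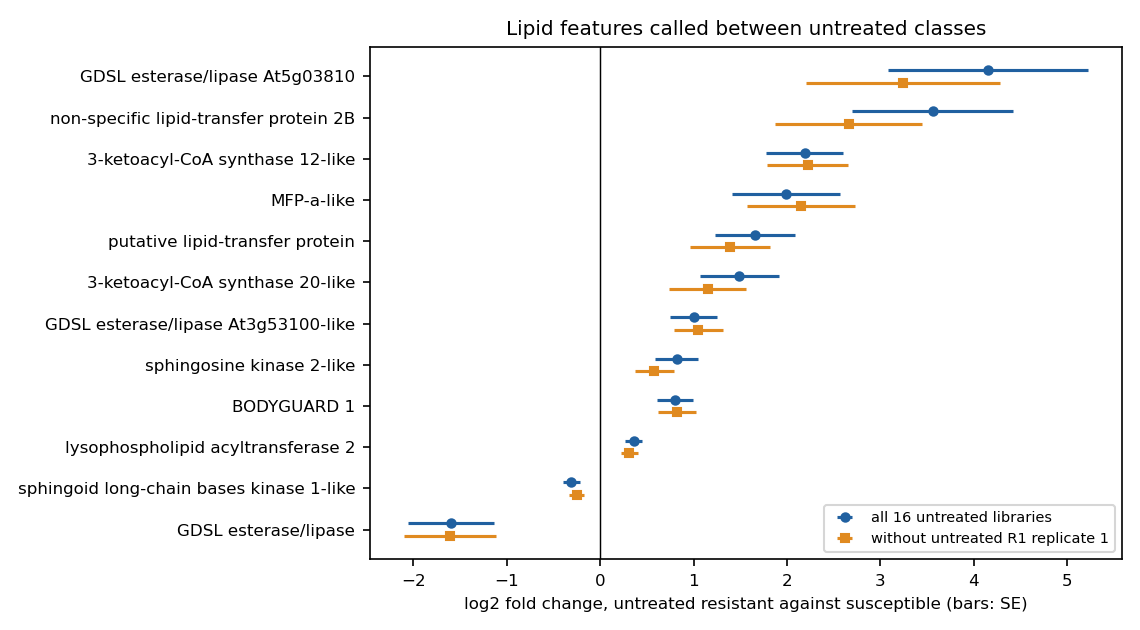
Log2 difference between untreated resistant and susceptible plants for the 12 lipid features called in that contrast, with all 16 untreated libraries (blue circles) and without untreated R1 replicate 1 (orange squares); bars are the SE of the fit. Without that library the signs stay, At5g03810 and lipid-transfer protein 2B move down, and 3 of the 12 pass the threshold.

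After spraying, 1 member differed between the classes, the UPF0678 fatty acid-binding protein-like At1g79260, against 2.30% of all features. Of the 7697 described features tested, 370 were called higher and 170 lower in sprayed resistant plants. The At1g79260 feature had 1.06, 2.08 and 2.6 CPM in sprayed resistant and 0.13, 0.947 and 1.42 CPM in sprayed susceptible plants. These ranges overlapped, with a log2 difference of 1.10. The call was lost in 6 of 16 fits without 1 library and with library totals alone. For the difference between the 2 class responses, edgeR called 0 of 67 members, against 0.563% of all features; 23 members had an unadjusted p under 0.05, and DESeq2 called 0. Medians of that difference were 0.02 for synthesis and -0.01 for breakdown. A response called in 1 class and not in the other is therefore not shown to differ between them.

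Comparisons between the populations of a class were not among those that chose the members. Here the test applies if the authors pooled the populations of each class, which is not stated in the sources used here. Otherwise the counts are a description. A choice on pooled classes may also favour members whose populations were alike. In untreated plants S2 and S1 differed in 0 of 67 members by edgeR's quasi-likelihood test (0.00799% of all features), with 2 at an unadjusted p under 0.05, and DESeq2 called 0. R2 and R1 differed in 0 members (0.0399% of all features), with 2 at an unadjusted p under 0.05, and DESeq2 called 0. The 2 were the same in both classes and are named after their values were seen. Sn1-specific diacylglycerol lipase alpha (second frame) had a log2 difference of -0.86 ± 0.29 between S2 and S1 (edgeR adjusted p = 0.818) and of -0.67 ± 0.28 between R2 and R1 (edgeR adjusted p = 0.557). The second frame of phytoene desaturase had 0.21 ± 0.10 and 0.25 ± 0.10, with adjusted p = 0.901 and 0.504 by edgeR.

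The spray responses of S2 and S1 differed in 0 members by edgeR (0.0280% of all features), with 3 at an unadjusted p under 0.05 and 0 called by DESeq2. The smallest belonged to the GDSL feature on contig DN8197, whose response was -1.18 in S1 and -0.26 in S2, a difference of 0.91 ± 0.28 (edgeR adjusted p = 0.330). The other 2 were fatty acid desaturase DES3-like (0.79 ± 0.32, edgeR adjusted p = 0.518) and the phospholipid-transporting ATPase (-0.69 ± 0.30, edgeR adjusted p = 0.551). The responses of R2 and R1 differed in 0 members by edgeR (0.00399% of all features), with 2 at an unadjusted p under 0.05 and 0 called by DESeq2. These were monogalactosyldiacylglycerol synthase 3, with -0.77 in R1 and -0.24 in R2 (0.54 ± 0.23, edgeR adjusted p = 0.816), and the second frame of phytoene desaturase (-0.30 ± 0.14, edgeR adjusted p = 0.851). For acetyl-coenzyme A carboxylase the differences in response were -0.06 ± 0.18 between S2 and S1 and 0.12 ± 0.18 between R2 and R1. With 4 libraries in each population these errors leave room for differences of this size, and a p above the threshold does not show that populations of a class act alike.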

How the data were processed

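RNA of whole leaves was sequenced after removal of ribosomal RNA with a stranded kit, per the labels' protocols. The deposited table holds raw counts per feature in 32 columns, made by the authors; the submitters' processing notes name STAR 2.5.2b, FastQC 0.11.5, R 3.6.1 and DESeq2 1.24.0. The assembly, alignment and counting settings, strand included, are not given in the sources used here. A second table, deposited by the authors, holds log2 fold changes and an adjusted p-value for 4 comparisons, with descriptions; it served to find members. Sequences were not used here.

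Counts were filtered with filterByExpr by the 8 groups, scaled with TMM factors (0.82 to 1.26) and fitted with edgeR 4.0.16 (R 4.3.3) to all 32 libraries: 8 group means and robust dispersions, with 24 degrees of freedom left (common biological coefficient of variation 0.389). Contrasts used the quasi-likelihood F test with Benjamini-Hochberg adjustment over 25036 features at 0.05. Errors are the SE of the fit. The per-library medians used log2(CPM + 0.5). In each library the 10 most abundant features held 60.9% to 69.6% of counts.

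Members, roles, lists and tests were chosen with earlier results of these data known. Named features are those with the highest and lowest mean response of each role at 1 CPM or more and both carboxylases; other members are named for completeness after their values were seen. Roles follow words, so that some are loose: BODYGUARD 1 is sorted with phospholipases and the sterol desaturase with desaturation. Alternatives were DESeq2 (1.42.0), other scalings, no filter, a replicate block, fits of the compared groups only, and leaving out each library. Replicates are biological per the labels; no pair of replicates was a duplicate (lowest chi-square per degree of freedom 12.9 over 48 pairs).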

Additional observations from a re-analysis of the deposited data

Results flagged for a closer look

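In groups of 4 libraries, 11 of 264 groups checked, for the named features and for the medians over synthesis and breakdown members, had a library far from the other 3, by the gap to its neighbour over the range of the group; chance alone gives this in about 1 in 20 groups. All values are in CPM, and no cause was tested. In untreated S2, acetyl-coenzyme A carboxylase had 355 in replicate 2 against 227 to 242 in the others, and the response of susceptible plants is not called without this library. Also in untreated S2, BODYGUARD 1 had 2.56 in replicate 3 against 3.86 to 4.1, the phospholipid-transporting ATPase 2.97 in replicate 4 against 4.21 to 4.41, and Diacylglycerol kinase 1 7.55 in replicate 1 against 6.6 to 6.69.

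In untreated R1, acyl carrier protein 2 had 5.0 in replicate 2 against 7.01 to 7.24, and digalactosyldiacylglycerol synthase 1 had 6.8 in replicate 1 against 8.77 to 8.95. The fatty acid amide hydrolase-like feature had 10.4 in R1 untreated replicate 2 against 15.3 to 15.8, and 8.94 in R2 untreated replicate 4 against 16.2 to 16.9. Phospholipid:diacylglycerol acyltransferase 1 had 12.7 in R2 untreated replicate 1 against 11 to 11.3. In sprayed R2, replicate 4 was high for MFP-a-like, at 5.53 against 0.64 to 1.06, and for lipid-transfer protein 2B, at 1.96 against 0.76 to 0.953.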

How the results depend on the processing

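With library totals alone, 21 members were called in the susceptible response (49 as reported), 12 in the resistant response (19), 22 between untreated classes (12), 0 between sprayed classes (1) and 4 for the difference of responses (0). The susceptible medians were then -0.03 for synthesis and 0.01 for breakdown, and the sign turned for cytosolic acetyl-CoA carboxylase 2 (0.01), acetyl-coenzyme A carboxylase (0.04), the second frame of phytoene desaturase (0.05) and sphingoid long-chain bases kinase 1-like (0.08); the median of all features moved by as much as the members did. DESeq2 called 20 between untreated classes and 2 between sprayed classes. By population alone, 25 members were called for S1, 11 for S2, 11 for R1 and 0 for R2 by edgeR (14 for R2 at an unadjusted p under 0.05); the synthesis median was -0.25 in S2 and the breakdown median -0.42 in R1. Each of these compares 4 with 4 libraries. Without 1 library in turn, calls ranged from 42 to 50 in the susceptible and 14 to 24 in the resistant response, from 1 to 14 between untreated and 0 to 2 between sprayed classes, and the resistant breakdown median from -0.37 to -0.20. DESeq2 size factors, no filter and the compared groups only left the counts within 1.5 times of those reported, with 8 calls between untreated classes under the last 2; the compared groups only could not be run for the difference of responses, which needs all groups. Assigning roles by function, an alternative chosen after seeing the data, left the medians within the spread between libraries.

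Replicate numbers did not pair the samples: deviations of same-numbered libraries of a population correlated at -0.08 to 0.09 over 16 pairs, and 2 of 32 libraries matched best with their own number. With a replicate block 48, 19, 9 and 1 members were called in the susceptible response, the resistant response, between untreated and between sprayed classes, and 0 in the other comparisons.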
